A study of Homo sapiens with 9 samples.

Results

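The genes described here are 43 members of the ATF4 stress response and the cytosolic transfer RNA synthetases, 25 of the first kind and 18 of the second. Each was found by its gene symbol in a table of 27407 features, so all 43 were present, and all 43 had enough counts to be tested among 18767 features. RNA was sequenced from human cells labelled Weri-RB1/CRP, a retinoblastoma line resistant to the platinum drug carboplatin, in 9 libraries. Cells in 3 libraries carried shSNHG1#1 and cells in another 3 carried shSNHG1#2, both being short hairpin RNAs designed to lower the long noncoding RNA SNHG1. Control cells, also 3 libraries, carried the hairpin shNC. All 3 groups thus carried a hairpin and shared the labelled carboplatin-resistant background, and the labels name no drug exposure during the experiment. SNHG1 was not analysed here, so the knockdown itself was not checked.

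The integrated stress response starts with kinases that sense a shortage of amino acids, a burden of unfolded protein, viral RNA or heme loss. They phosphorylate the alpha subunit of the initiation factor eIF2, which lowers protein synthesis in general while ribosomes translate the ATF4 message more often. ATF4 is a transcription factor that pairs with C/EBP proteins and switches on genes for amino acid import and synthesis, for tRNA charging, and for the factors DDIT3, TRIB3 and PPP1R15A. Aminoacyl-tRNA synthetases join each amino acid to its tRNA, and many synthetase genes are known ATF4 targets. ATF4 itself is controlled largely at translation, which RNA levels do not measure.

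The libraries were of near-equal depth, with totals of 21502093 to 21606498 estimated counts, and replicates of a group differed by more than sampling noise. Separate cultures are not stated for the replicates. The p-values then reflect the spread among these samples alone, and that spread may be technical. In bulk RNA, fewer cells of a type and less RNA per cell cannot be told apart. Of 12 photoreceptor and retinoblastoma markers in the table, 10 stayed below 1 FPKM (fragments per kilobase of transcript, scaled to library size) in every library, CRX at no more than 0.03 and RCVRN at no more than 0.09. GNAT2 (16.0 to 19.6 FPKM) and THRB (1.63 to 2.43 FPKM) were the exceptions, and the epithelial keratin KRT8 stood at 745 to 790.3 FPKM. Apart from those, the markers of the labelled retinal origin were at or near 0. Whether the cells are of the labelled line was not tested. The photoreceptor list summed to 18.8 to 19.3 FPKM with shSNHG1#1 and 18.8 to 19.7 FPKM with shSNHG1#2, against 20.4 to 22.1 FPKM with shNC, and their part in the results was not tested. The epithelial list of 5 genes summed to 1510 to 1602 FPKM with shSNHG1#1 and 1515 to 1606 FPKM with shSNHG1#2, against 1633 to 1634 FPKM with shNC, nearly all of it KRT8 and KRT18. Within that list EPCAM rose (log2 0.98 with shSNHG1#1 and 0.89 with shSNHG1#2), while KRT19 (-0.73 with shSNHG1#1 and -0.53 with shSNHG1#2), CDH1 (-0.35 with shSNHG1#1 and -0.23 with shSNHG1#2) and KRT18 (-0.12 with shSNHG1#1 and -0.17 with shSNHG1#2) fell, and KRT8 had -0.06 with shSNHG1#1 and -0.09 with shSNHG1#2, which passed with shSNHG1#2 alone. One feature with no gene symbol took 12.2% to 13.5% of counts with shSNHG1#1 and 11.8% to 12.1% with shSNHG1#2, against 6.57% to 7.09% with shNC.

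Sequences around the starts of the members show which of them carry the letters that ATF4 and its C/EBP partners are known to bind, TGATGNAA on either strand. RefSeq windows of assembly GRCh38.p14, from 250 bases before to 50 bases after a gene's start, matched 34 of the 43 members. NUPR1, PYCR1, EIF2AK1, EIF4EBP1, GPT2, DARS, LARS, VARS and YARS had no window, so they were not searched. The element stood in the windows of 12 members, 5 stress genes and 7 synthetases, and in 4.46% of the 27305 genes with a window. The stress genes are given first, in gene orientation with the matched letters in capitals, because ASNS and CHAC1 are textbook ATF4 targets and the others are regulators within the response.
ASNS: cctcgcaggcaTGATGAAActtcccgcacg
CHAC1: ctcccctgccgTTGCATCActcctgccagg
CEBPG: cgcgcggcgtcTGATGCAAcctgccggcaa
JDP2: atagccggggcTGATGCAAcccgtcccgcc
PPP1R15B: cccgccccggcTGATGCAAcctcacgctgc

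These stretches lie at chr7:97872458-97872487 (ASNS, minus strand), chr15:40953251-40953280 (CHAC1, plus strand) and chr19:33374060-33374089 (CEBPG, plus strand). The other stress gene stretches are chr14:75427995-75428024 (JDP2, plus strand) and chr1:204412026-204412055 (PPP1R15B, minus strand). The element of ASNS ran from 68 to 61 bases before its start, and that of CHAC1 lay farther out, from 209 to 202 bases before. The synthetase stretches follow, shown because synthetases with the same letters moved in different directions.
MARS: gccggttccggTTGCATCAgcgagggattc
NARS: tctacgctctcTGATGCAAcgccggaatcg
IARS: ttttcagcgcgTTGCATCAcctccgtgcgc
GARS: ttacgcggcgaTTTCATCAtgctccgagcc
TARS: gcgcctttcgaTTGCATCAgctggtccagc
AARS: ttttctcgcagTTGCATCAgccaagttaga
CARS: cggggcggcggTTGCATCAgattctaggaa

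They lie at chr12:57488053-57488082 (MARS, plus strand), chr18:57621804-57621833 (NARS, minus strand), chr9:92293692-92293721 (IARS, minus strand) and chr7:30594834-30594863 (GARS, plus strand). Those of the remaining synthetases are chr5:33440956-33440985 (TARS, plus strand), chr16:70289675-70289704 (AARS, minus strand) and chr11:3057407-3057436 (CARS, minus strand). In MARS the letters covered the start itself, and in TARS they stood 3 to 10 bases into the transcript. No window of ATF4, DDIT3, TRIB3, PPP1R15A or CTH held these letters, which says nothing of the bases outside the windows. PPP1R15A was the 1 member whose window held the cyclic AMP response element TGACGTCA, a palindrome read alike on both strands and present in 2.25% of genes with a window. No member's windows held both motifs, so no matches overlapped. The 250 bases before the start of PPP1R15A, chr19:48872171-48872420 on the plus strand, are shown because it was among the members that fell furthest, with the element in capitals.
PPP1R15A: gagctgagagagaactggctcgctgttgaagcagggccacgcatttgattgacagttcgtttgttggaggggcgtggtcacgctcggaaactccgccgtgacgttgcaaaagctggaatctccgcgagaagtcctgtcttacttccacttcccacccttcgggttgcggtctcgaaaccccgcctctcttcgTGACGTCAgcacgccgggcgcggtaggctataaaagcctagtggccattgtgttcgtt

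The members moved in both directions. With shSNHG1#1, 19 members rose and 12 fell against shNC (31 of 43, 72.1%), where 48.1% of all tested genes passed the same threshold, an adjusted p below 0.05 by edgeR's quasi-likelihood test. With shSNHG1#2, 17 rose and 15 fell (74.4%), where 46.2% of all genes did. The comparisons share the shNC libraries, and the members were chosen with earlier results of these data known, so these shares are no test of the members. From counts, the large changes among the stress genes were decreases: 3 genes fell at least 2-fold with either hairpin and none rose that far. By the ratio of mean FPKM, CTH did rise that far, 2.21-fold with shSNHG1#1 and 2.36-fold with shSNHG1#2. Among the synthetases 1 gene rose at least 2-fold with either hairpin and none fell that far. Of all 18767 tested genes, 658 passed the threshold and rose at least 2-fold with shSNHG1#1, and 501 fell that far. With shSNHG1#2 these were 562 and 430 genes. So few members are too few to make a large rise or fall a trait of either kind.

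**Figure D1:**
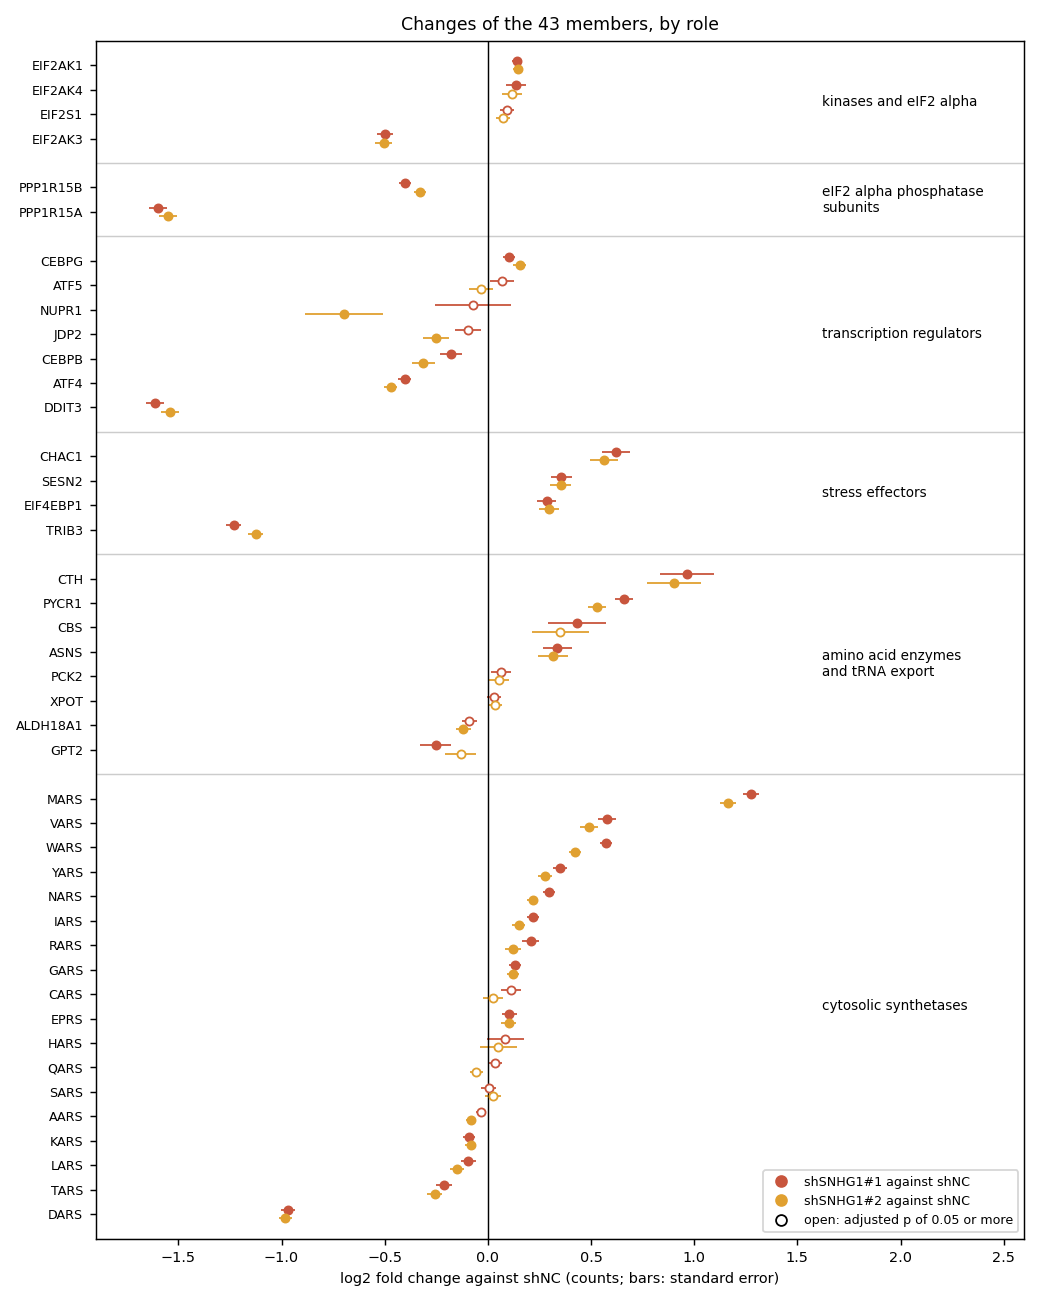
Log2 fold changes of the 43 members against shNC, computed from counts, with shSNHG1#1 (red) and shSNHG1#2 (yellow); bars are standard errors and open points did not pass the threshold. DDIT3, PPP1R15A and TRIB3 lie furthest to the left and MARS furthest to the right, while most members sit near 0.

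By role, the 25 stress genes split as 10 higher, 8 lower and 7 not past the threshold with shSNHG1#1. With shSNHG1#2 they split as 8 higher, 10 lower and 7 not past it. The shares of all tested genes were 24.5% higher and 23.5% lower with shSNHG1#1, and 23.3% higher and 22.8% lower with shSNHG1#2. The median log2 fold change of the stress genes was 0.06 with shSNHG1#1 and 0.04 with shSNHG1#2. For all tested genes it was 0.02 with shSNHG1#1 and 0.01 with shSNHG1#2. With both hairpins 8 stress genes rose, 7 fell and none moved in opposite directions, and ATF5, EIF2S1, XPOT and PCK2 passed the threshold with neither. The same counts were not made over all tested genes. Both comparisons use the same shNC libraries, and 3.12% of all tested genes differed between the hairpins, so moving alike says little about these genes. The summed level of the 25 genes was 899 ± 24.3 FPKM with shSNHG1#1 and 892 ± 13.3 FPKM with shSNHG1#2, against 1179 ± 17.4 FPKM with shNC (SD, n = 3 each). CEBPB, ATF4, PPP1R15A and DDIT3 were the members with the highest FPKM in shNC libraries. They weigh most on this sum, and all of them fell with both hairpins.

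The sensors and their substrate come first. EIF2AK3 encodes PERK, the eIF2 kinase that answers unfolded protein in the endoplasmic reticulum, and it had 6.68, 6.99 and 6.87 FPKM in shSNHG1#1 libraries, 7.07, 7.46 and 6.95 FPKM in shSNHG1#2 libraries and 9.88, 9.50 and 9.36 FPKM in shNC libraries. Every hairpin library lay below every shNC library. The log2 fold change was -0.50 (SE 0.04, adjusted p = 1.9e-06) with shSNHG1#1 and -0.51 (SE 0.04, adjusted p = 2.1e-06) with shSNHG1#2. EIF2AK4 encodes GCN2, which senses uncharged tRNA, and had 10.1, 10.3 and 9.98 FPKM with shSNHG1#1 and 9.44, 10.1 and 10.7 FPKM with shSNHG1#2, against 9.13, 8.52 and 8.77 FPKM with shNC. All libraries of both hairpins lay above the shNC libraries, yet the change was small, at 0.14 (SE 0.05, adjusted p = 0.034) with shSNHG1#1 and 0.12 (SE 0.05, adjusted p = 0.063) with shSNHG1#2, and passed the threshold with shSNHG1#1 alone. Whether it differed between the hairpins is answered by their direct comparison, in which it did not pass (log2 fold change -0.02, adjusted p = 0.9). EIF2AK1, the heme-regulated eIF2 kinase, rose by log2 0.14 with shSNHG1#1 and 0.15 with shSNHG1#2. EIF2S1, which encodes eIF2 alpha, had log2 fold changes of 0.09 with shSNHG1#1 and 0.07 with shSNHG1#2 and did not pass.

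Both regulatory subunits of the phosphatase that removes the phosphate from eIF2 alpha fell. PPP1R15A, also called GADD34 and itself induced during stress, had 70.7, 64.5 and 66.0 FPKM with shSNHG1#1 and 74.2, 69.0 and 68.7 FPKM with shSNHG1#2, against 197, 200.3 and 196 FPKM with shNC. The groups stood far apart, with no hairpin library above 74.2 FPKM and no shNC library below 196 FPKM. Its decrease was 3.03-fold with shSNHG1#1 and 2.93-fold with shSNHG1#2, log2 -1.60 (SE 0.04, adjusted p = 5.2e-10) with shSNHG1#1 and -1.55 (SE 0.04, adjusted p = 7.4e-10) with shSNHG1#2. PPP1R15B, the constitutive subunit, fell by less, with log2 fold changes of -0.40 with shSNHG1#1 and -0.33 with shSNHG1#2.

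ATF4, the factor at the centre of the response, had 167, 159 and 159 FPKM in shSNHG1#1 libraries, 160.4, 153 and 156 FPKM in shSNHG1#2 libraries and 206, 215 and 206 FPKM in shNC libraries. Its hairpin libraries all lay below its shNC libraries. The log2 fold change was -0.40 (SE 0.03, adjusted p = 2.3e-06) with shSNHG1#1 and -0.47 (SE 0.03, adjusted p = 8.7e-07) with shSNHG1#2. DDIT3, which encodes CHOP, a C/EBP-family factor linked to cell death in prolonged stress, had 27.0, 22.7 and 28.5 FPKM with shSNHG1#1 and 31.6, 32.7 and 30.8 FPKM with shSNHG1#2, against 105, 109 and 109 FPKM with shNC. The highest hairpin library had 32.7 FPKM and the lowest shNC library 105 FPKM. From counts the decrease was 3.06-fold with shSNHG1#1 and 2.91-fold with shSNHG1#2, log2 -1.61 (SE 0.04, adjusted p = 4.7e-10) with shSNHG1#1 and -1.54 (SE 0.04, adjusted p = 7.4e-10) with shSNHG1#2. The C/EBP factor CEBPB, a binding partner of ATF4, fell, with log2 fold changes of -0.18 with shSNHG1#1 and -0.31 with shSNHG1#2. CEBPG, another partner, rose, with 0.10 with shSNHG1#1 and 0.15 with shSNHG1#2.

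NUPR1, a small stress-induced chromatin protein, had 6.10, 4.82 and 4.99 FPKM in shSNHG1#1 libraries, 4.12, 3.38 and 2.96 FPKM in shSNHG1#2 libraries and 6.62, 4.70 and 4.76 FPKM in shNC libraries. The shSNHG1#1 and shNC libraries overlapped, and all 3 shSNHG1#2 libraries lay below both. Its log2 fold change was -0.07 (SE 0.19, adjusted p = 0.79) with shSNHG1#1 and -0.70 (SE 0.19, adjusted p = 0.012) with shSNHG1#2. Set directly against each other, the hairpins differed in NUPR1 by log2 -0.63 (SE 0.19, adjusted p = 0.13), which missed the threshold. JDP2, a repressor of the AP-1 family, fell with shSNHG1#2 (log2 -0.25) and had -0.10 with shSNHG1#1, where it did not pass. When FPKM values were tested, JDP2 did not pass with shSNHG1#2 either (log2 -0.10 and -0.09 with the smaller and larger pseudocount, adjusted p = 0.303 and 0.309), and its value with shSNHG1#1 turned slightly positive. ATF5, an ATF4-related factor, passed with neither (log2 0.07 with shSNHG1#1 and -0.03 with shSNHG1#2), and its sign with shSNHG1#2 turned positive when counts were scaled by library totals.

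**Figure D2:**
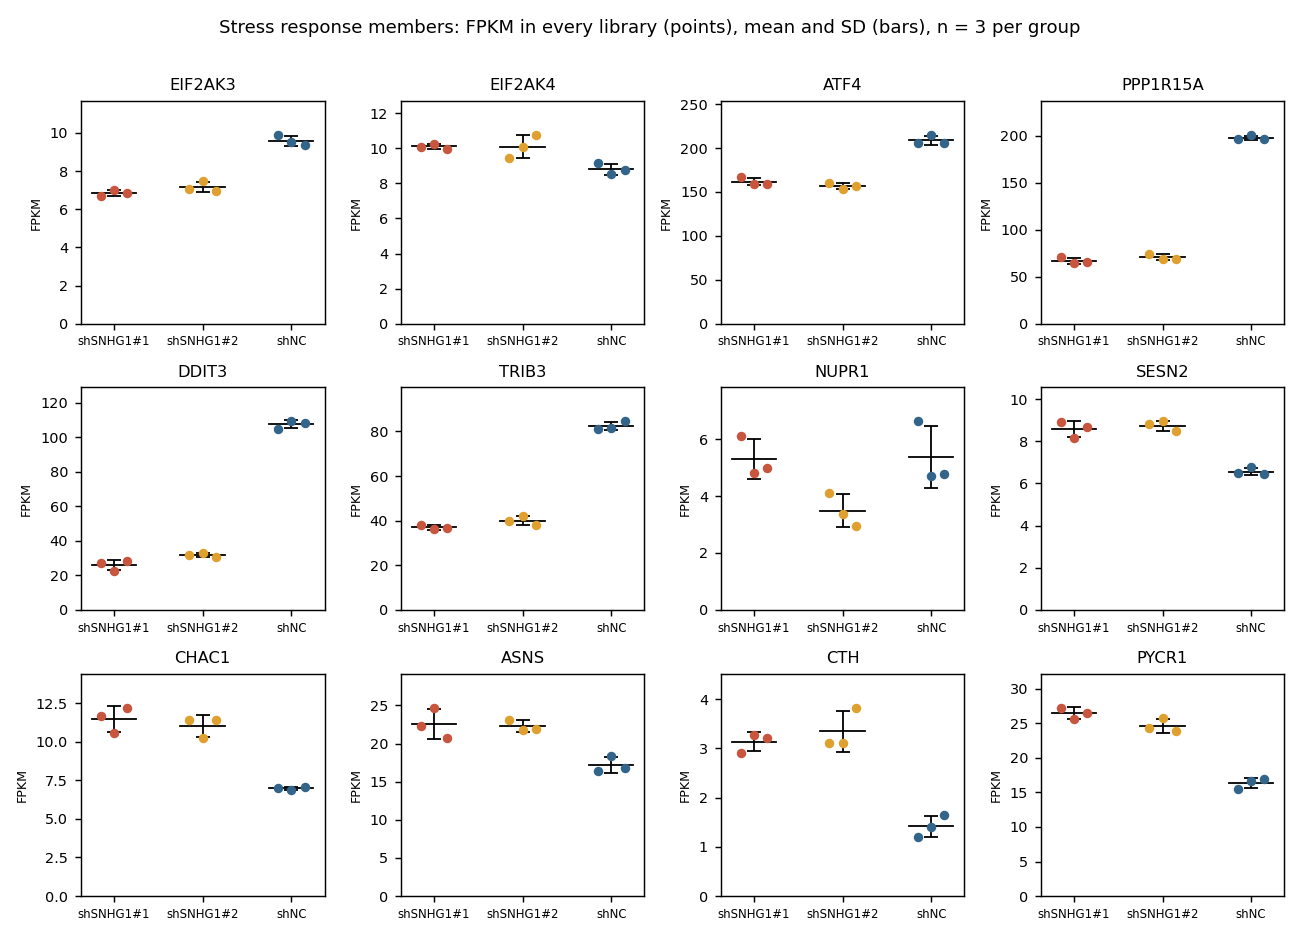
FPKM of 12 stress response members in every library, with points for libraries and bars for the mean and SD of 3 libraries per group, each panel starting at 0. PPP1R15A, DDIT3 and TRIB3 are far lower with either hairpin than with shNC, whereas CHAC1, CTH and PYCR1 are higher.

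The effectors divided. TRIB3, a pseudokinase that ATF4 and DDIT3 switch on and that holds back ATF4, had 38.2, 36.1 and 36.7 FPKM in shSNHG1#1 libraries, 39.7, 42.2 and 38.0 FPKM in shSNHG1#2 libraries and 81.0, 81.7 and 84.5 FPKM in shNC libraries. Its highest hairpin library was 42.2 FPKM and its lowest shNC library 81.0 FPKM. It fell 2.35-fold with shSNHG1#1 and 2.18-fold with shSNHG1#2, log2 -1.23 (SE 0.04, adjusted p = 9.8e-10) with shSNHG1#1 and -1.13 (SE 0.04, adjusted p = 2.4e-09) with shSNHG1#2. CHAC1, an enzyme that breaks down glutathione and a known target of ATF4, went the other way, at 11.7, 10.6 and 12.2 FPKM with shSNHG1#1 and 11.4, 10.2 and 11.4 FPKM with shSNHG1#2, against 6.99, 6.85 and 7.07 FPKM with shNC. Hairpin and shNC libraries did not overlap. The log2 fold change was 0.62 (SE 0.07, adjusted p = 2.0e-05) with shSNHG1#1 and 0.56 (SE 0.07, adjusted p = 5.0e-05) with shSNHG1#2.

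SESN2, a leucine-binding inhibitor of mTORC1 signalling, had 8.91, 8.16 and 8.69 FPKM in shSNHG1#1 libraries, 8.80, 8.94 and 8.47 FPKM in shSNHG1#2 libraries and 6.47, 6.76 and 6.44 FPKM in shNC libraries. All hairpin libraries exceeded all shNC libraries. The increase was log2 0.36 (SE 0.05, adjusted p = 0.00016) with shSNHG1#1 and 0.35 (SE 0.05, adjusted p = 0.00019) with shSNHG1#2. EIF4EBP1, which encodes the translation repressor 4E-BP1, rose by a similar amount, log2 0.29 with shSNHG1#1 and 0.30 with shSNHG1#2.

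Of the 8 genes for amino acid enzymes and tRNA export, 4 rose and 1 fell with shSNHG1#1, and 3 rose and 1 fell with shSNHG1#2. Of all tested genes 48.1% passed with shSNHG1#1 and 46.2% with shSNHG1#2, so with 8 genes the counts are no result about this role. CTH, which makes cysteine from cystathionine, had 2.91, 3.27 and 3.22 FPKM with shSNHG1#1 and 3.11, 3.11 and 3.83 FPKM with shSNHG1#2, against 1.21, 1.41 and 1.64 FPKM with shNC. Its mean level was the lowest of all members in shNC libraries, and the groups did not overlap. From counts the rise was 1.95-fold with shSNHG1#1 and 1.87-fold with shSNHG1#2. The log2 fold change of CTH was 0.97 (SE 0.13, adjusted p = 0.00011) with shSNHG1#1 and 0.90 (SE 0.13, adjusted p = 0.00021) with shSNHG1#2. By the ratio of mean FPKM the rise was larger, 2.21-fold with shSNHG1#1 and 2.36-fold with shSNHG1#2. PYCR1, which completes proline synthesis, had 27.3, 25.6 and 26.6 FPKM in shSNHG1#1 libraries, 24.4, 25.7 and 23.8 FPKM in shSNHG1#2 libraries and 15.6, 16.6 and 16.9 FPKM in shNC libraries. No shNC library reached the lowest hairpin library. Its log2 fold change was 0.66 (SE 0.04, adjusted p = 5.3e-07) with shSNHG1#1 and 0.53 (SE 0.04, adjusted p = 3.7e-06) with shSNHG1#2.

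ASNS makes asparagine and is among the best known ATF4 targets; it had 22.3, 24.7 and 20.7 FPKM with shSNHG1#1 and 23.1, 21.8 and 22.0 FPKM with shSNHG1#2, against 16.4, 18.3 and 16.8 FPKM with shNC. The groups did not overlap, though the libraries of shSNHG1#1 spread widely. Its log2 fold change was 0.34 (SE 0.07, adjusted p = 0.0024) with shSNHG1#1 and 0.32 (SE 0.07, adjusted p = 0.0039) with shSNHG1#2. CBS, the enzyme before CTH in the same pathway, had 4.75, 4.09 and 4.22 FPKM in shSNHG1#1 libraries, 3.96, 4.87 and 3.86 FPKM in shSNHG1#2 libraries and 2.04, 2.66 and 3.70 FPKM in shNC libraries. The third shNC library came close to the hairpin libraries, and the log2 fold change was 0.43 (SE 0.14, adjusted p = 0.025) with shSNHG1#1 and 0.35 (SE 0.14, adjusted p = 0.061) with shSNHG1#2. The near-identical copy CBSL is also in the table, so the split of reads between them is uncertain.

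Among the remaining enzymes the changes were small. ALDH18A1, an enzyme at the start of proline synthesis, had log2 -0.09 with shSNHG1#1, where it did not pass, and fell with shSNHG1#2 (log2 -0.12). GPT2, the mitochondrial alanine transaminase, fell with shSNHG1#1 (log2 -0.25) and had -0.13 with shSNHG1#2, where it did not pass. PCK2, the mitochondrial phosphoenolpyruvate carboxykinase (log2 0.06 with shSNHG1#1 and 0.05 with shSNHG1#2), and XPOT, the tRNA export receptor (log2 0.03 with shSNHG1#1 and 0.04 with shSNHG1#2), passed with neither.

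The 18 cytosolic synthetases rose more often than they fell: 9 rose, 4 fell and 5 did not pass with shSNHG1#1, and 9 rose, 5 fell and 4 did not pass with shSNHG1#2. Of all tested genes 24.5% rose and 23.5% fell with shSNHG1#1, and 23.3% rose and 22.8% fell with shSNHG1#2. The median log2 fold change of the synthetases was 0.11 with shSNHG1#1 and 0.08 with shSNHG1#2. The count of synthetases that fell was not stable. It was 2 with either hairpin when counts were scaled by library totals alone or when FPKM values were tested. It was also 2 for shSNHG1#1 without shNC replicate 2, and 3 for shSNHG1#2 without shSNHG1#2 replicate 2 or without shSNHG1#2 replicate 3. The summed level of the 18 genes was 824 ± 4.68 FPKM with shSNHG1#1 and 797 ± 6.12 FPKM with shSNHG1#2, against 733 ± 9.48 FPKM with shNC (SD, n = 3 each).

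MARS, the methionyl-tRNA synthetase, had 54.4, 54.8 and 56.8 FPKM in shSNHG1#1 libraries, 52.5, 53.2 and 49.0 FPKM in shSNHG1#2 libraries and 22.0, 22.9 and 22.5 FPKM in shNC libraries. Every hairpin library was more than 2-fold above every shNC library. The rise was 2.42-fold with shSNHG1#1 and 2.24-fold with shSNHG1#2, log2 1.27 (SE 0.04, adjusted p = 1.0e-09) with shSNHG1#1 and 1.16 (SE 0.04, adjusted p = 2.6e-09) with shSNHG1#2. VARS, for valine, had 14.5, 13.9 and 14.0 FPKM with shSNHG1#1 and 13.3, 14.3 and 14.0 FPKM with shSNHG1#2, against 9.61, 9.28 and 8.76 FPKM with shNC. Its groups did not overlap, and its log2 fold change was 0.58 (SE 0.04, adjusted p = 1.2e-06) with shSNHG1#1 and 0.49 (SE 0.04, adjusted p = 5.0e-06) with shSNHG1#2. WARS, for tryptophan, which interferon is also known to induce, had 80.2, 77.3 and 77.7 FPKM in shSNHG1#1 libraries, 72.3, 69.3 and 72.6 FPKM in shSNHG1#2 libraries and 51.2, 51.2 and 50.2 FPKM in shNC libraries. Here all 3 groups were separate, with shSNHG1#1 highest and shNC lowest. Against shNC the log2 fold change of WARS was 0.57 (SE 0.03, adjusted p = 5.0e-08) with shSNHG1#1 and 0.42 (SE 0.03, adjusted p = 6.9e-07) with shSNHG1#2.

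YARS, for tyrosine, rose by log2 0.35 with shSNHG1#1 and 0.28 with shSNHG1#2, and NARS, for asparagine, by log2 0.30 with shSNHG1#1 and 0.22 with shSNHG1#2. IARS, for isoleucine, rose by log2 0.22 with shSNHG1#1 and 0.15 with shSNHG1#2 from counts. By the ratio of mean FPKM its rise was larger, at log2 0.39 with shSNHG1#1 and 0.32 with shSNHG1#2, above that of NARS on the same scale (0.35 with shSNHG1#1 and 0.29 with shSNHG1#2). Small rises were those of RARS, for arginine (0.21 with shSNHG1#1 and 0.12 with shSNHG1#2), GARS, for glycine (0.13 with shSNHG1#1 and 0.12 with shSNHG1#2), and EPRS, the joint glutamyl and prolyl enzyme (0.10 with shSNHG1#1 and 0.10 with shSNHG1#2). All 6 passed with both hairpins.

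DARS, the aspartyl-tRNA synthetase, was the synthetase that fell most, at 36.3, 34.6 and 36.3 FPKM with shSNHG1#1 and 35.8, 34.4 and 36.1 FPKM with shSNHG1#2, against 67.2, 70.0 and 68.3 FPKM with shNC. The hairpin libraries lay between 34.4 and 36.3 FPKM and no shNC library was below 67.2 FPKM. The decrease was 1.96-fold with shSNHG1#1 and 1.97-fold with shSNHG1#2, log2 -0.97 (SE 0.03, adjusted p = 2.9e-09) with shSNHG1#1 and -0.98 (SE 0.03, adjusted p = 3.2e-09) with shSNHG1#2. An antisense gene overlaps DARS in RefSeq, so its counts are uncertain where strand was not used. TARS, for threonine, had 52.6, 58.1 and 55.1 FPKM in shSNHG1#1 libraries, 53.7, 55.4 and 53.2 FPKM in shSNHG1#2 libraries and 61.2, 63.6 and 60.9 FPKM in shNC libraries. Its groups did not overlap, and it fell, with log2 fold changes of -0.21 (SE 0.04, adjusted p = 0.00081) with shSNHG1#1 and -0.26 (SE 0.04, adjusted p = 0.00024) with shSNHG1#2. LARS, for leucine, had 28.8, 29.7 and 28.4 FPKM with shSNHG1#1 and 27.8, 28.6 and 27.1 FPKM with shSNHG1#2, against 29.0, 29.5 and 28.5 FPKM with shNC. In FPKM the LARS groups overlapped, and the fitted change from counts was log2 -0.09 (SE 0.03, adjusted p = 0.045) with shSNHG1#1 and -0.15 (SE 0.03, adjusted p = 0.005) with shSNHG1#2. KARS, for lysine, fell slightly (log2 -0.09 with shSNHG1#1 and -0.08 with shSNHG1#2). AARS, for alanine, had log2 -0.04 with shSNHG1#1, where it did not pass and turned positive under library totals, and fell with shSNHG1#2 (log2 -0.08). CARS, HARS, QARS and SARS passed with neither.

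**Figure D3:**
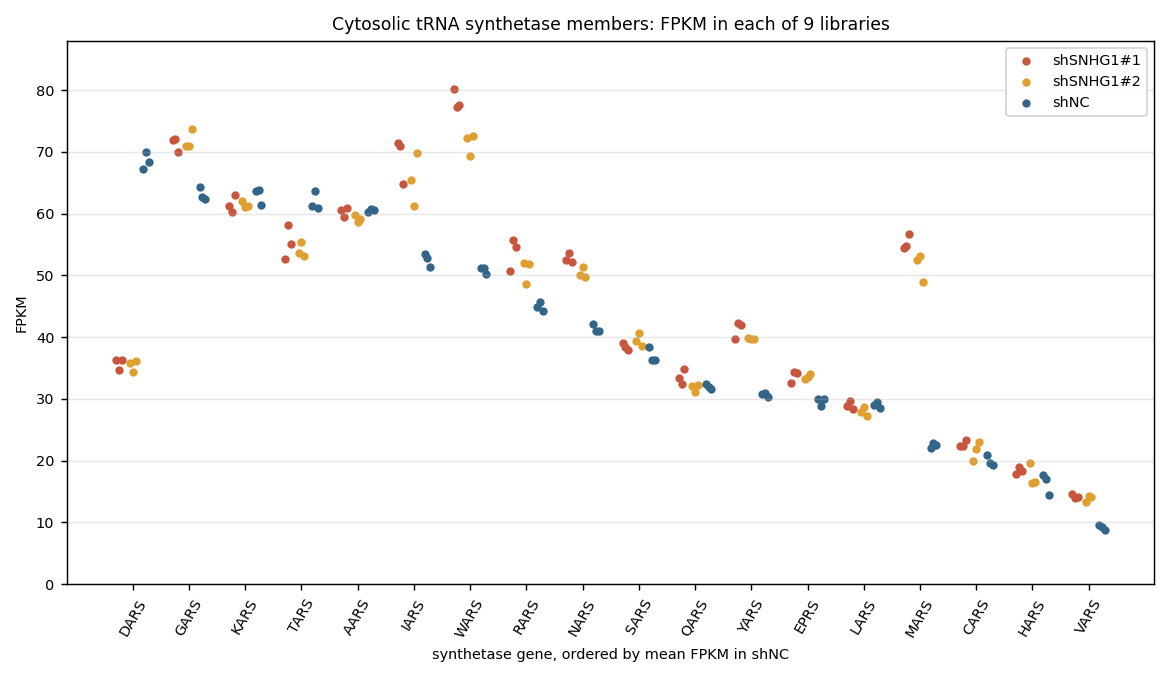
FPKM of the 18 cytosolic synthetases in each of 9 libraries, ordered by mean FPKM with shNC; 1 point is 1 library, coloured by group. MARS and WARS stand higher with either hairpin, DARS stands lower, and the points of KARS, AARS, SARS, QARS and LARS lie close together.

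Some synthetases are held together in the cytosolic multi-synthetase complex, and its subunits did not move as 1. Of its 8 enzymes among the members, EPRS, IARS, MARS and RARS rose with both hairpins, DARS, KARS and LARS fell with both, and QARS passed with neither. The KARS and LARS decreases did not pass with either hairpin when counts were scaled by library totals or FPKM values were tested, which leaves DARS as the subunit whose decrease passed with both hairpins under all 19 alternatives. Under library totals KARS had log2 -0.04 (adjusted p = 0.232) with shSNHG1#1 and -0.02 (adjusted p = 0.615) with shSNHG1#2. LARS had log2 -0.05 (adjusted p = 0.26) with shSNHG1#1 and -0.08 (adjusted p = 0.0603) with shSNHG1#2 under the same scaling. On log2(FPKM + 0.1), LARS had -0.0031 (adjusted p = 0.948) with shSNHG1#1 and -0.06 (adjusted p = 0.146) with shSNHG1#2. Of the 10 synthetases outside the complex, 5 rose with both, 1 fell with both (TARS), 3 passed with neither and 1 passed with a single hairpin (AARS). This grouping was made after the values were known and carries no test. Of all tested genes 48.1% passed with shSNHG1#1 and 46.2% with shSNHG1#2, and the share passing with both was not counted.

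Members with the ATF4 and C/EBP letters printed above did not share a direction. Of the 5 stress genes with the element, ASNS, CHAC1 and CEBPG rose with both hairpins and PPP1R15B fell with both, while JDP2 fell with shSNHG1#2. Of the 7 synthetases with it, MARS, NARS, IARS and GARS rose with both, TARS fell with both, AARS fell with shSNHG1#2 and CARS passed with neither. DDIT3, PPP1R15A and TRIB3, which fell furthest among the stress genes, had none in their windows. PPP1R15A, whose window holds the cyclic AMP response element, was 3.03-fold lower with shSNHG1#1 and 2.93-fold lower with shSNHG1#2. Among all tested genes, 24.5% rose and 23.5% fell with shSNHG1#1, and 23.3% rose and 22.8% fell with shSNHG1#2. So few members carry the ATF4 and C/EBP element that their directions are no result about it. Both motifs are matches of letters, and binding was not measured.

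DDIT3 and MARS overlap on chromosome 12 in RefSeq, and they moved in opposite directions. Counts of DDIT3 were 1118, 1021 and 1122 with shSNHG1#1 and 1123, 1225 and 1124 with shSNHG1#2, against 3186, 3181 and 3306 with shNC. Counts of MARS were 3269.8, 3307 and 3372 with shSNHG1#1 and 3169.6, 3174 and 2975 with shSNHG1#2, against 1283, 1364 and 1335 with shNC. The sources used here do not say whether counting used strand, so how reads were shared between the pair is uncertain. In RefSeq, 22 of the 43 members are overlapped by another gene, EIF2AK3 and CEBPB by antisense genes among them.

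Each gene's count and FPKM together give the transcript length that the authors' estimate implied in that library. For DDIT3 this length was 1920, 2086 and 1824 bases with shSNHG1#1 and 1643, 1741 and 1695 bases with shSNHG1#2, against 1407, 1351 and 1414 bases with shNC. The groups did not overlap, with the longest lengths in shSNHG1#1 libraries. By the ratio of mean FPKM, DDIT3 was thus lower still, at log2 -2.04 with shSNHG1#1 and -1.76 with shSNHG1#2. The implied length of MARS was 2788, 2804 and 2756 bases with shSNHG1#1 and 2793, 2775 and 2823 bases with shSNHG1#2, against 2706, 2766 and 2759 bases with shNC. The mean implied length differed from shNC by more than 5% for 6 members, DDIT3, PPP1R15B, CTH, CBS, JDP2 and IARS, and by less for the other 37. Of IARS, whose shSNHG1#1 and shNC libraries overlapped, it was 3345, 3565 and 3935 bases with shSNHG1#1 and 3673, 3868 and 3497 bases with shSNHG1#2, against 3937, 3905 and 3989 bases with shNC. Whether other transcript forms or reads of neighbouring genes moved with these lengths was not tested.

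**Figure D4:**
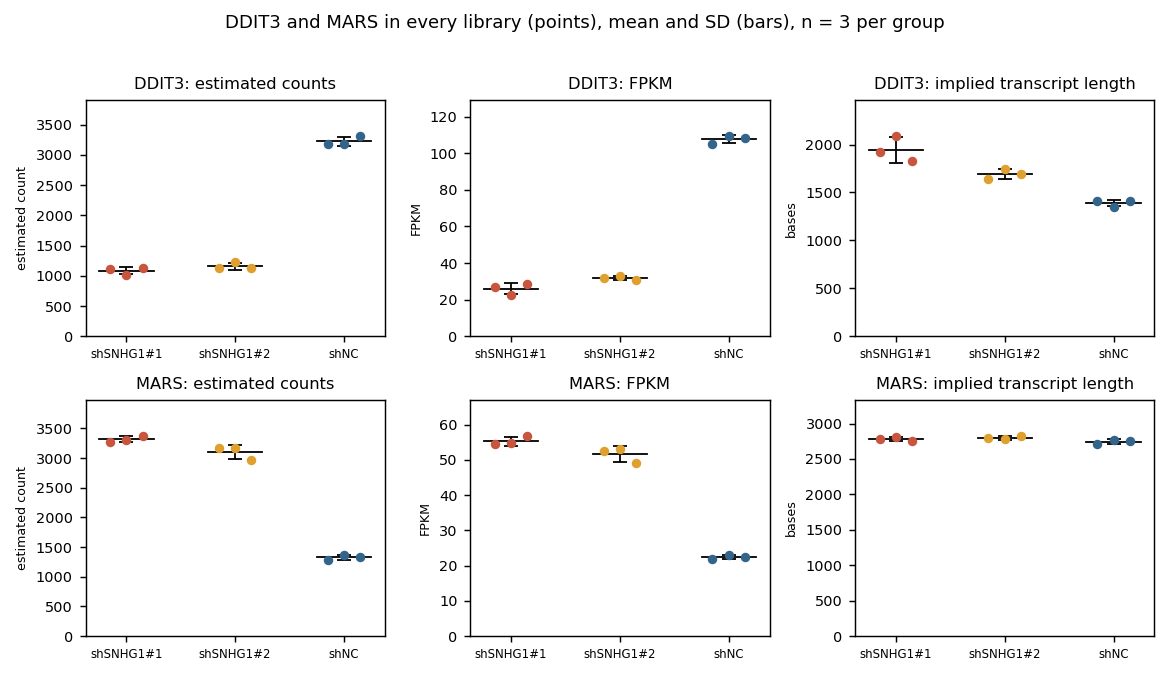
Estimated counts, FPKM and implied transcript length of DDIT3 (top) and MARS (bottom) in every library, with the mean and SD of 3 libraries per group. DDIT3 counts and FPKM are lower and its implied length longer with either hairpin, and MARS counts and FPKM are higher at nearly the same implied length.

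Between the hairpins themselves, shSNHG1#2 against shSNHG1#1, 1 of the 43 members passed the threshold (2.33%), where 3.12% of all tested genes did (2.0% higher and 1.12% lower with shSNHG1#2). Those 3.12% were 586 genes, and the count was 351 genes without shSNHG1#1 replicate 3, 297 without shSNHG1#2 replicate 2 and 349 without shSNHG1#2 replicate 3. The member was WARS, with 72.3, 69.3 and 72.6 FPKM in shSNHG1#2 libraries, against 80.2, 77.3 and 77.7 FPKM in shSNHG1#1 libraries. These groups did not overlap. The log2 fold change was -0.15 (SE 0.03, adjusted p = 0.016). The call was lost without shSNHG1#1 replicate 1, shSNHG1#1 replicate 3, shSNHG1#2 replicate 2 or shSNHG1#2 replicate 3 (log2 -0.15 to -0.12, adjusted p = 0.0533 to 0.105), and also when only the 2 hairpin groups were fitted (adjusted p = 0.0511). The other members ranged from log2 -0.63 for NUPR1 to 0.12 for GPT2. The median was -0.02 for stress genes and -0.06 for synthetases, beside 0.00 for all genes.

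Several small changes lay near the threshold, so that leaving out 1 library ended the call while the log2 fold change stayed of similar size. With shSNHG1#1 the CEBPB call was lost without shNC replicate 3 or shSNHG1#1 replicate 2 (log2 -0.15 to -0.14, adjusted p = 0.0611 to 0.0678). That of CEBPG was lost without shNC replicate 2, shNC replicate 3, shSNHG1#1 replicate 2, shSNHG1#1 replicate 3 or shSNHG1#2 replicate 2 (log2 0.08 to 0.09, adjusted p = 0.0514 to 0.105), and that of GPT2 without shNC replicate 1 or shSNHG1#1 replicate 2 (log2 -0.23 to -0.20, adjusted p = 0.0518 to 0.0572). EIF2AK4, the GCN2 kinase, lost its call without any of the 3 shSNHG1#1 libraries, shNC replicate 2, shNC replicate 3 or shSNHG1#2 replicate 2 (log2 0.10 to 0.14, adjusted p = 0.0678 to 0.148). CBS lost it without shNC replicate 1, shNC replicate 2, shSNHG1#1 replicate 1 or shSNHG1#1 replicate 2 (log2 0.30 to 0.41, adjusted p = 0.0644 to 0.101). Among synthetases in the same comparison, LARS lost it without shNC replicate 1, shNC replicate 2, shSNHG1#1 replicate 1 or shSNHG1#1 replicate 3 (log2 -0.10 to -0.09, adjusted p = 0.0871 to 0.11), and KARS without shNC replicate 2 (log2 -0.08, adjusted p = 0.0705).

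With shSNHG1#2 the KARS call was lost without shNC replicate 1, shNC replicate 2, shSNHG1#1 replicate 3, shSNHG1#2 replicate 2 or shSNHG1#2 replicate 3 (log2 -0.09 to -0.07, adjusted p = 0.0551 to 0.117). RARS lost its call without shNC replicate 1, shNC replicate 2, shNC replicate 3, shSNHG1#1 replicate 3, shSNHG1#2 replicate 1 or shSNHG1#2 replicate 3 (log2 0.10 to 0.12, adjusted p = 0.0611 to 0.131). AARS did so without shSNHG1#2 replicate 2 or shSNHG1#2 replicate 3 (log2 -0.08 to -0.07, adjusted p = 0.0665 to 0.0797), and ALDH18A1 when shSNHG1#2 replicate 1, shSNHG1#2 replicate 3 or shNC replicate 1 was left out (log2 -0.12 to -0.11, adjusted p = 0.0571 to 0.0766). EPRS lost its call most often. Its call was lost without any 1 of 8 libraries with shSNHG1#1 (log2 0.07 to 0.11, adjusted p = 0.0505 to 0.178; it was kept only without shSNHG1#1 replicate 1) and of 8 with shSNHG1#2 (log2 0.07 to 0.11, adjusted p = 0.05 to 0.206; again kept only without shSNHG1#1 replicate 1). The calls of DDIT3, PPP1R15A, TRIB3, ATF4, EIF2AK3, CHAC1, SESN2, CTH, PYCR1, ASNS, MARS, VARS, WARS, DARS and TARS against shNC were kept with both hairpins whichever library was left out.

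Other settings also ended calls. With library totals alone or on the FPKM scales, CEBPB with shSNHG1#1 (log2 -0.13 in each, adjusted p = 0.071 to 0.108) and ALDH18A1 with shSNHG1#2 (log2 -0.07 to -0.05, adjusted p = 0.316 to 0.321) no longer passed. The same held for AARS with shSNHG1#2 (log2 -0.03 to -0.02, adjusted p = 0.205 to 0.635). On the FPKM scales alone, GPT2 with shSNHG1#1 was lost as well (log2 -0.18 and -0.15, adjusted p = 0.0761 and 0.0805). With no filter on low counts, CEBPG (adjusted p = 0.0577) and EIF2AK4 (adjusted p = 0.0643) were lost with shSNHG1#1, RARS (adjusted p = 0.0622) with shSNHG1#2, and EPRS with both (adjusted p = 0.0872 with shSNHG1#1 and 0.0889 with shSNHG1#2).

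The rest of the pathway was read from lists of genes outside the members. Of 32 tested genes reported as targets of ATF4 or of eIF2 kinase signalling, some of which also answer hypoxia or glucose, 13 rose and 16 fell with shSNHG1#1, and 13 rose and 18 fell with shSNHG1#2. That is 90.6% of the list with shSNHG1#1, against 48.1% of all tested genes, and 96.9% with shSNHG1#2, against 46.2%. The list was chosen with earlier results of these data known, so the high share is no test of the list. Their median log2 fold change was -0.16 with shSNHG1#1 and -0.21 with shSNHG1#2. STC2, a secreted glycoprotein, fell, with log2 fold changes of -2.46 with shSNHG1#1 and -2.31 with shSNHG1#2. NDRG1, a gene induced by hypoxia, fell as well (-2.32 with shSNHG1#1 and -1.69 with shSNHG1#2), as did HERPUD1 (-1.61 with shSNHG1#1 and -1.68 with shSNHG1#2), which acts in the disposal of misfolded endoplasmic reticulum proteins. TXNIP, the thioredoxin inhibitor, rose by log2 2.56 with shSNHG1#1 and 2.99 with shSNHG1#2. PSAT1, an enzyme of serine synthesis, rose by 1.06 with shSNHG1#1 and 0.88 with shSNHG1#2, and ALDH1L2, a mitochondrial folate enzyme, by 0.98 with shSNHG1#1 and 0.92 with shSNHG1#2.

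Of 21 tested partners of the eIF2 kinases, eIF2 and its exchange factor eIF2B, 6 rose and 8 fell with shSNHG1#1, and 6 rose and 10 fell with shSNHG1#2. With shSNHG1#1 66.7% of the list passed, against 48.1% of all tested genes, and with shSNHG1#2 76.2%, against 46.2%. This list, too, was chosen with earlier results of these data known. The share that rose is close to that of all genes (24.5% with shSNHG1#1 and 23.3% with shSNHG1#2). The median log2 fold change was -0.04 with shSNHG1#1 and -0.10 with shSNHG1#2. EIF2AK2, the kinase PKR that senses double-stranded RNA, fell, with log2 fold changes of -0.75 with shSNHG1#1 and -0.47 with shSNHG1#2. EIF2A, an alternative initiation factor (-0.50 with shSNHG1#1 and -0.56 with shSNHG1#2), and DELE1, which relays mitochondrial stress to EIF2AK1 (-0.50 with shSNHG1#1 and -0.44 with shSNHG1#2), also fell. The eIF2B subunits EIF2B3 (log2 0.44 with shSNHG1#1 and 0.41 with shSNHG1#2) and EIF2B2 (0.44 with shSNHG1#1 and 0.37 with shSNHG1#2) rose, as did GCN1, the activator of GCN2 (0.41 with shSNHG1#1 and 0.43 with shSNHG1#2).

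Of 17 mitochondrial synthetases, 6 rose and 3 fell with shSNHG1#1, and 4 rose and 3 fell with shSNHG1#2. These are 52.9% of the list with shSNHG1#1 and 41.2% with shSNHG1#2, near the 48.1% and 46.2% of all tested genes in those comparisons, so the counts are no result about the list. The median log2 fold change was 0.11 with shSNHG1#1 and 0.05 with shSNHG1#2. The mitochondrial enzymes for tryptophan (WARS2, log2 -0.62 with shSNHG1#1 and -0.64 with shSNHG1#2), tyrosine (YARS2, -0.40 with shSNHG1#1 and -0.37 with shSNHG1#2) and glutamate (EARS2, -0.31 with shSNHG1#1 and -0.31 with shSNHG1#2) fell. Those for methionine (MARS2, log2 0.54 with shSNHG1#1 and 0.49 with shSNHG1#2), proline (PARS2, 0.49 with shSNHG1#1 and 0.51 with shSNHG1#2) and threonine (TARS2, 0.43 with shSNHG1#1 and 0.38 with shSNHG1#2) rose. WARS, the cytosolic tryptophan enzyme, thus rose while WARS2 fell, and likewise YARS rose and YARS2 fell. Conversely TARS fell and TARS2 rose. Among 5 other cytosolic synthetase subunits and scaffolds, 2 rose and 1 fell with shSNHG1#1, and 1 rose and none fell with shSNHG1#2. The shares of all tested genes were 48.1% with shSNHG1#1 and 46.2% with shSNHG1#2, so with 5 genes the counts are no result. EEF1E1 rose (log2 0.60 with shSNHG1#1 and 0.41 with shSNHG1#2) and AIMP1 fell (-0.15 with shSNHG1#1 and -0.14 with shSNHG1#2), each passing with shSNHG1#1 alone. Only 1 gene of this list passed the threshold with both hairpins. This was FARSB, the beta subunit of the phenylalanine enzyme, which rose (log2 0.41 with shSNHG1#1 and 0.40 with shSNHG1#2).

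**Figure D5:**
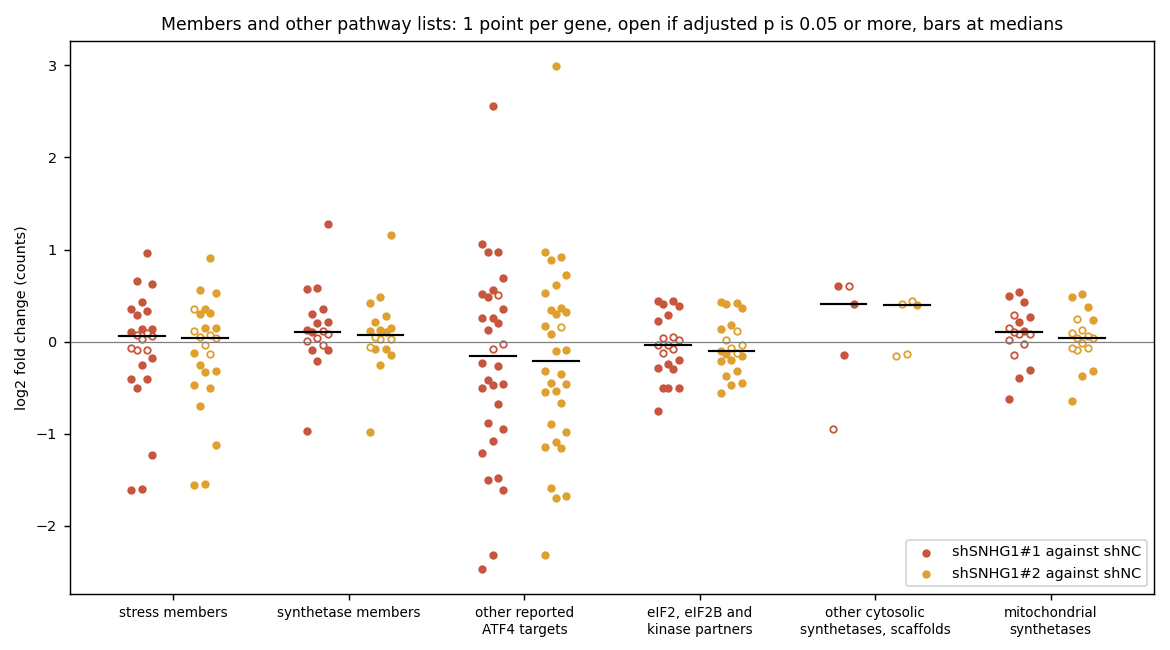
Log2 fold changes against shNC, from counts, for the members and the 4 other lists; 1 point is 1 gene, open points did not pass the threshold, and black bars are medians. Medians lie near 0 except for the 5 other cytosolic synthetase subunits and scaffolds, and the other reported ATF4 targets spread most widely, with STC2 and NDRG1 at the bottom and TXNIP at the top.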

How the data were processed

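RNA from 9 libraries was sequenced after BGI500 library preparation, per the labels' protocols. One deposited table gives estimated counts per feature, per the file headers, and a second value per library that the deposited values identify as FPKM, since the header does not name its unit. The submitters' processing notes name RSEM 1.2.12, HISAT2 2.0.4, DESeq2 1.4.5 and Bowtie2 2.2.5 without saying which step used which. The sources used here give no genome build, annotation or use of strand.

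For testing, estimated counts were rounded to whole numbers and passed to edgeR 4.0.16 under R 4.3.3. Scaling was by TMM, filterByExpr removed low features, and a quasi-likelihood F test with a group term was fitted to the 9 libraries together. Adjustment was by Benjamini-Hochberg over 18767 features, with a threshold of 0.05. Standard errors were derived from the F statistic. The scripts were tested on simulated data. Alternatives used DESeq2 1.42.0, limma 3.58.1 on log2(FPKM + 0.1) and log2(FPKM + 1), other scalings, filters and samples, 19 in all. FPKM levels are means ± SD. Implied length is count divided by FPKM and library total.

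Members and lists were chosen with earlier results of these data known. Values in every library are given for 8 fixed members, for the 4 highest and 4 lowest changed stress genes and 3 and 3 synthetases in each contrast against shNC, and for up to 3 members changed between hairpins. From each other list, up to 3 genes at each end that moved alike with both hairpins are named. GDF15, VEGFA and IARS2 were added after their values were seen. RefSeq overlaps and promoter windows are of GRCh38.p14. In RefSeq 22 of the 43 members are overlapped by another gene, which makes their counts uncertain.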

Additional observations from a re-analysis of the deposited data

Results flagged for a closer look

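Some genes differed between the hairpins themselves, by the test of shSNHG1#2 against shSNHG1#1 in edgeR's quasi-likelihood fit. Among members this was WARS (log2 fold change -0.15, adjusted p = 0.016), lower with shSNHG1#2 than with shSNHG1#1 in 3 of 3 libraries. Among other reported ATF4 targets, NDRG1 had log2 0.63 (adjusted p = 2.0e-07), TXNIP 0.44 (adjusted p = 0.00033), VEGFA 0.39 (adjusted p = 8.9e-05), STC2 0.15 (adjusted p = 0.039) and GDF15 -0.21 (adjusted p = 0.02). The kinase gene EIF2AK2 had log2 0.28 (adjusted p = 0.0016), and the mitochondrial synthetase gene IARS2 had log2 -0.13 (adjusted p = 0.028). Positive values are higher with shSNHG1#2.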

How the results depend on the processing

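Of the members past the threshold, 23 of 31 with shSNHG1#1 and 25 of 32 with shSNHG1#2 kept their call under all 19 alternatives run, and no called member changed sign. List medians, close to 0 throughout, moved more. For shSNHG1#1 against shNC the stress median was 0.110 with library totals alone, 0.0511 with no filter, 0.094 and 0.0876 on log2(FPKM + 0.1) and log2(FPKM + 1), 0.0481 with only the groups compared, and 0.03 to 0.0663 leaving out each replicate. The synthetase median was 0.154 with library totals, 0.180 and 0.175 on the FPKM scales, 0.092 with only the groups compared, and 0.0883 to 0.123 leaving out each replicate. For shSNHG1#2 against shNC the stress median was 0.102 with library totals, 0.101 and 0.0981 on the FPKM scales, and 0.0148 to 0.0531 leaving out each replicate. The synthetase median was 0.140 with library totals, 0.145 and 0.141 on the FPKM scales, and 0.0445 to 0.105 leaving out each replicate. Synthetases that fell numbered 2 with library totals and on both FPKM scales for either hairpin, and 2 to 4 with shSNHG1#1 and 3 to 5 with shSNHG1#2 leaving out each replicate. For shSNHG1#2 against shSNHG1#1 the count of all genes was 970 with DESeq2, 386 with only the groups compared and 297 to 534 leaving out each replicate. The stress median there was 0.0159 and 0.0149 on the FPKM scales and -0.0265 to 0.00518 leaving out each replicate, and synthetases that fell numbered 0 with only the groups compared and 0 to 1 leaving out each replicate.

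Members not past the threshold changed sign as follows. With shSNHG1#1, leaving out each replicate gave -0.192 to 0.107 for NUPR1 (positive without shNC replicate 1), -4.2e-05 to 0.0452 for XPOT and -0.0214 to 0.0248 for SARS. JDP2 was 0.00861 and 0.00827 on the FPKM scales, and AARS 0.0108 with library totals. SARS was -0.00729 with median-of-ratios factors, -0.00798 with no filter, -0.0073 with DESeq2 and -0.0109 with only the groups compared. With shSNHG1#2, ATF5 was 0.031 with library totals and 0.0339 and 0.0314 on the FPKM scales, and QARS 0.00869 with library totals. Leaving out each replicate gave -0.0212 to 0.0654 for CARS, -0.0707 to 0.106 for HARS and -0.00238 to 0.0466 for SARS. The cause of these shifts was not tested. Library totals alone moved the median log2 fold change of all genes to 0.07 with shSNHG1#1 and 0.08 with shSNHG1#2.

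The replicate numbers showed no sign of pairing the samples: deviations of same-numbered libraries correlated between -0.036 and 0.032. Those of differently numbered libraries correlated between -0.052 and 0.047. With 3 libraries per group this cannot exclude that same-numbered samples were handled together. With the replicate number as a block, 8752 genes passed for shSNHG1#1 against shNC, 8421 for shSNHG1#2 against shNC and 433 for shSNHG1#2 against shSNHG1#1. Under that block EIF2AK4 and EPRS lost their calls with shSNHG1#1, and EPRS, KARS and RARS with shSNHG1#2. Among members the standard error of the log2 fold change was widest for NUPR1 (0.19), CBS (0.14) and CTH (0.13).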
